A study of Mus musculus with 6 samples.

Results

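The insulin-like growth factor (IGF) system was followed in primary mouse myoblasts as 10 genes: the ligands Igf1 and Igf2, the receptors Igf1r and Igf2r, and the binding proteins Igfbp2 to Igfbp7. Every probe set annotated to just 1 of these genes was taken, which gave 28 of 45101 probe sets. Of these, 21 probe sets of 9 genes were tested, after the dimmest 40% of all probe sets (those with a mean log2 signal under 6.50) were left out, and Igfbp6 had none among them. A further probe set, annotated to both Airn and Igf2r, was not used. Of the 6 arrays, 3 came from myoblasts given LncMyoD shRNA, a short hairpin RNA delivered by lentivirus in a Tet-pLKO-puro vector. Its target, LncMyoD, is a long non-coding RNA whose gene lies near Myod1, the gene of a master factor of muscle cells. The other 3 arrays came from control myoblasts, and what virus or hairpin these received is not stated in the labels. Strain, sex, hairpin sequence, time after infection and any inducer of the vector are likewise not stated. All samples carry an age of 21 days. The labels describe a growth medium with 20% fetal bovine serum and 2.5 ng/ml basic fibroblast growth factor, and a differentiation medium with 5% horse serum, without saying which the profiled cells were in.

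IGF1 and IGF2 are secreted peptides that muscle cells both make and respond to, and they promote first the proliferation and then the differentiation of myoblasts. Both act through the receptor tyrosine kinase IGF1R, whereas IGF2R, the cation-independent mannose 6-phosphate receptor, carries IGF2 to the lysosome for breakdown. Binding proteins outside the cell hold the ligands, and proteases that cut the binding proteins set them free. The study's title names IMP2, which belongs to a family of RNA-binding proteins named for their binding of Igf2 mRNA. The arrays measure transcript levels, not translation or protein.

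Values are log2 signals, with 1 unit equal to a doubling, and n = 3 arrays in each group. Calls are from limma's moderated test over 27023 probe sets, with a Benjamini-Hochberg adjusted p under 0.05. Members were read against a broad background, since 53.9% of all tested probe sets passed: 8213 (30.4%) were higher and 6352 (23.5%) lower in the shRNA arrays. With each array centred on the median of its tested probe sets these became 6673 and 8166. The 3' over 5' log2 ratio of control transcripts, which rises as RNA degrades, also moved with group, at 0.53 to 0.57 in shRNA arrays and 0.49 to 0.52 in control arrays for actin. For GAPDH it was 0.19 to 0.26 in shRNA arrays and 0.09 to 0.18 in control arrays. Of 8 myotube markers 0 rose and 6 fell, with a summed linear signal of 98849 to 101495 in shRNA arrays and 107084 to 111130 in control arrays. Of 8 myoblast markers 4 rose (Pax7, Myf5, Cdh15 and Vcam1), 1 fell (Chodl) and 3 did not pass. The sums were 44762 to 46820 in shRNA arrays and 41426 to 43817 in control arrays. Their brightest gene, Myod1, did not pass (limma adjusted p = 0.688). Mean signals of Chodl were 7.96 in shRNA arrays and 9.38 in control arrays. Of 4 tested fibroblast markers 1 rose (Pdgfra, with mean signals of 7.51 in shRNA arrays and 6.63 in control arrays), 2 fell (Col3a1 and Col1a1) and 1 did not pass. The sums for 8 fibroblast markers, mostly the signal of Col3a1, were 1787 to 1951 in shRNA arrays and 2261 to 2593 in control arrays, with Dpt, Dcn, Lum and Thy1 below the tested range. Of 5 tested leukocyte markers 2 rose (Cd68 and Cd14), 0 fell and 3 did not pass (Csf1r, Lyz2 and Tyrobp). Mean signals of Cd68 were 6.73 in shRNA arrays and 6.40 in control arrays. Those of Cd14 were 7.19 in shRNA arrays and 6.12 in control arrays. Both control means lay under 6.50, so these markers reached the tested range only through their shRNA arrays. For 7 leukocyte markers the sums were 628 to 701 in shRNA arrays and 574 to 613 in control arrays, with Ptprc and Adgre1 below the tested range. Of 6 tested pericyte and smooth muscle markers 1 rose (Notch3), 0 fell and 5 did not pass. For 7 such markers the sums were 22894 to 23525 in shRNA arrays and 21480 to 22692 in control arrays, with Rgs5 below the tested range. These sums were mostly the signal of Acta2, which did not pass (limma adjusted p = 0.145). Of 7 endothelial and 4 adipocyte markers, 0 lay in the tested range. The part of RNA integrity and of these cell types in the results was not tested.

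In the shRNA arrays Igfbp3 rose on both probe sets, Igfbp2 on its single one and Igf1r on most, while 3 of 4 probe sets of Igf1 fell. Igf2 and Igf2r each rose on 1 of 2 probe sets, by 0.17 and 0.25 on the log2 scale. Igfbp3 rose 1.49-fold and 1.56-fold on its 2 probe sets. Igf1r rose on 3 of its 4 tested probe sets, by up to 1.57-fold, and fell on the other. Igf1 was lower by 0.37 to 0.61 on the log2 scale on 3 probe sets, and at -0.11 on its brightest, which did not pass. In a bulk sample, fewer cells of a type and less RNA per cell cannot be told apart. In all, 13 of 21 tested probe sets passed, 8 higher and 5 lower, or 61.9% against 53.9% of all tested probe sets. The arrays of the groups did not overlap in 14 of the 21, against 59.5% of all tested probe sets. The median difference was 0.096 over the 21 and 0.021 over all tested probe sets. With the brightest probe set standing for each gene, 4 of 9 genes were higher and 0 lower, against 35.7% higher and 22.8% lower among all 12408 genes tested. The medians were then 0.13 for the members and 0.046 for all genes. The share of members called was thus near the background over probe sets and below it over genes (44.4% against 58.5%), and nothing is read from either about the members as a group.

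**Figure D1:**
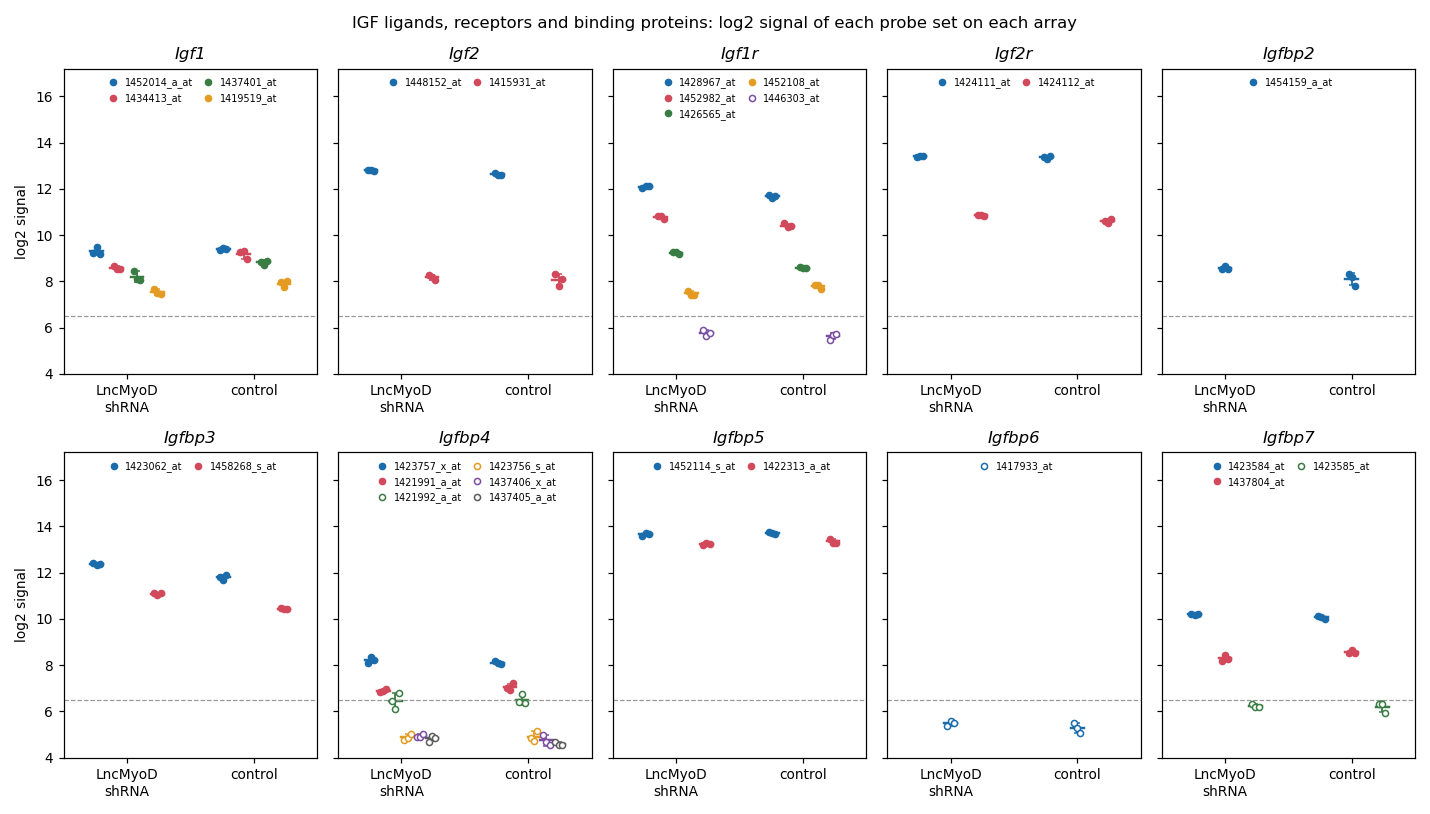
Log2 signal of all 28 probe sets, 1 panel a gene, with the LncMyoD shRNA arrays at the left and the control arrays at the right of each panel. Each point is 1 array, bars are the mean ± SD (n = 3), open points are probe sets below the tested range and the dashed line marks its lower end, 6.50; Igfbp3 and 3 probe sets of Igf1r stand higher in the shRNA arrays.

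The promoter windows of 4 members are shown because their probe sets moved in different ways: Igfbp3 rose on both, Igf1r rose on most, Igf1 fell on most, and Igf2r rose on 1 of 2. Each is the 250 bases before the annotated start, from RefSeq on GRCm38.p6, written 5′ to 3′ on the strand of the gene. Capitals mark the E-box CANNTG, the core motif of basic helix-loop-helix factors such as MyoD.
Igf1 (chr10:87860861-87861110, plus strand): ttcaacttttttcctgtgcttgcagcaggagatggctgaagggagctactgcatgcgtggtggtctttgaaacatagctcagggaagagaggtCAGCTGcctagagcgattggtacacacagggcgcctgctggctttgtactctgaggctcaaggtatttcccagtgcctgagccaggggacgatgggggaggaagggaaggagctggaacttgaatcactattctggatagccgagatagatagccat
Igf1r (chr7:67952007-67952256, plus strand): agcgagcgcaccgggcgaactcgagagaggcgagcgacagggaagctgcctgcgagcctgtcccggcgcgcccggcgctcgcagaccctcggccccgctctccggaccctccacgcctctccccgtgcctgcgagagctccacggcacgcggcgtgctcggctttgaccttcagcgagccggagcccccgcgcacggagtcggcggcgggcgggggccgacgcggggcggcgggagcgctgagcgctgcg
Igf2r (chr17:12769707-12769956, minus strand): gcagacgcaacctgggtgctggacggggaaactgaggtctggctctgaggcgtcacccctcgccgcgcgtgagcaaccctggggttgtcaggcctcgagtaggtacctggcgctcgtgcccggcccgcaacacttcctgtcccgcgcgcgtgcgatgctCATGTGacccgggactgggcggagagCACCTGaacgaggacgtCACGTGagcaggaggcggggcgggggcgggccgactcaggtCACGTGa
Igfbp3 (chr11:7213924-7214173, minus strand): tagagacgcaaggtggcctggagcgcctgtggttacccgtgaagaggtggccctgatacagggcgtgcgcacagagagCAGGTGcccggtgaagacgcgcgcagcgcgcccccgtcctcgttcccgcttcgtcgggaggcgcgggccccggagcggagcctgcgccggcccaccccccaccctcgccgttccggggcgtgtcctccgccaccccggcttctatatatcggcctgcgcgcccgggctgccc

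The Igf1 window held 1 E-box, whose letters, CAGCTG, are the form with a GC centre. It starts 157 bases before the start of the gene. The Igfbp3 window held 1 E-box as well, 172 bases before the start, and the Igf2r window held 4, at 91, 65, 48 and 7 bases. No CANNTG stood in these letters of the Igf1r window, which held 2 GC boxes (GGGCGG, read on both strands) and had a GC content of 77.6%. The Igf2r window held 3 GC boxes, and those of Igf1 and Igfbp3 held 0. Over 32851 windows of the same length, 66.2% held at least 1 CANNTG and 12.2% held 3 or more, while 13% held CAGCTG, which is part of the CANNTG count. GC boxes were in 32.7% of them. All 10 members matched a window, 14 in all, and 9 of the 14 held CANNTG. These matches describe letters and say nothing of whether a factor binds there.

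Igf1, the growth factor that muscle cells release in response to growth hormone and load, was read by 4 probe sets. The one with the highest signal, 1452014_a_at, stood at 9.23, 9.48 and 9.18 in shRNA arrays and at 9.36, 9.44 and 9.41 in control arrays. The groups overlap there, since shRNA array 2 is above every control array. Its difference was -0.11 (95% interval -0.28 to 0.07, limma adjusted p = 0.299). On 1434413_at the signals were 8.68, 8.53 and 8.53 in shRNA arrays, against 9.27, 9.30 and 8.95 in control arrays. Every shRNA array was below every control array, and the difference of -0.60 (SE 0.098, limma adjusted p = 0.000210) amounts to 1.51-fold lower. On 1437401_at they were 8.46, 8.10 and 8.05 in shRNA arrays and 8.83, 8.72 and 8.90 in control arrays, a difference of -0.61 (SE 0.11, limma adjusted p = 0.000354). The dimmest, 1419519_at, gave 7.66, 7.48 and 7.45 in shRNA arrays and 7.95, 7.74 and 8.00 in control arrays. Its groups did not overlap either, with a difference of -0.37 (SE 0.11, limma adjusted p = 0.0116), but the call was lost without control array 3 (-0.32, adjusted p = 0.0525). Igf1 was not called when its brightest probe set stood for it, and was called lower when its probe sets were averaged (-0.42, limma adjusted p = 0.000151). The measured decrease of Igf1 therefore rests on which of its probe sets is read.

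Igf2, the ligand that differentiating myoblasts make as their own survival and differentiation signal, rose slightly on its brighter probe set. That probe set, 1448152_at, stood at 12.81, 12.81 and 12.76 in shRNA arrays and at 12.68, 12.59 and 12.59 in control arrays. The groups did not overlap, and the difference of 0.17 (SE 0.038, limma adjusted p = 0.00209) is 1.13-fold. On the dimmer 1415931_at, designed from the same source sequence, the signals were 8.27, 8.21 and 8.04 in shRNA arrays and 8.33, 7.81 and 8.09 in control arrays. Here the groups overlap, and the difference of 0.096 (95% interval -0.17 to 0.36, limma adjusted p = 0.544) turned to -0.037 without control array 2. With the 2 probe sets averaged, Igf2 was not past the threshold (0.13, limma adjusted p = 0.109).

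Igf1r, the signalling receptor of both ligands, rose on its 3 brighter probe sets. On 1428967_at, the brightest, the signals were 12.02, 12.10 and 12.11 in shRNA arrays and 11.72, 11.59 and 11.69 in control arrays, or 0.41 higher (SE 0.046, limma adjusted p = 7.45e-06). On 1452982_at they were 10.80, 10.84 and 10.70 in shRNA arrays and 10.50, 10.34 and 10.37 in control arrays, or 0.38 higher (SE 0.058, limma adjusted p = 0.000128). On 1426565_at they were 9.28, 9.25 and 9.16 in shRNA arrays and 8.61, 8.57 and 8.56 in control arrays, or 0.65 higher (SE 0.073, limma adjusted p = 7.27e-06). In each of these the groups are well apart. The next, 1452108_at, went the other way, at 7.59, 7.41 and 7.42 in shRNA arrays and 7.85, 7.85 and 7.68 in control arrays. The groups did not overlap, with a difference of -0.32 (SE 0.10, limma adjusted p = 0.0188). That call was lost without control array 2 (-0.29, adjusted p = 0.0670), without shRNA array 2 (-0.29, 0.0678) or without shRNA array 3 (-0.29, 0.0657), although its direction held. The platform annotation gives 1426565_at and 1452108_at the same source sequence, and likewise gives 1428967_at and 1452982_at a shared one. The last of the 5, 1446303_at, was below the tested range at 5.76 ± 0.13 in shRNA arrays and 5.63 ± 0.13 in control arrays (SD). Probe sets called in both directions were found in 302 of 5913 genes with more than 1 tested probe set (5.11%). On the probe sets that rose, Igf1r kept its call without any 1 array, with differences of 0.37 to 0.44 on the brightest.

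To compare the probe sets of Igf1r, their signals were set against each other within each array. The signal of 1452108_at relative to 1428967_at was -4.69 to -4.44 in shRNA arrays and -4.02 to -3.74 in control arrays, a shift of -0.73. That of 1426565_at relative to 1428967_at shifted by 0.24, and that of 1452982_at by -0.035. Over the 12 such pairs in the 8 genes with more than 1 tested probe set, the groups did not overlap in 7 pairs. No share over all genes is given for such pairs, so nothing about the members is read from this count. Each of those 7 had a two-sided exact permutation p = 0.1, the smallest that 20 assignments of 3 against 3 arrays allow, and 0.171 after Benjamini-Hochberg adjustment over the 12. The test therefore could not reach 0.05.

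Igf2r, the clearing receptor of IGF2, stood at 13.39, 13.43 and 13.43 in shRNA arrays and at 13.38, 13.30 and 13.42 in control arrays on 1424111_at. The groups overlap, with a difference of 0.051 (95% interval -0.03 to 0.13, limma adjusted p = 0.281). That difference became -0.013 with the arrays centred on the medians of their tested probe sets. On the dimmer 1424112_at the signals were 10.88, 10.88 and 10.80 in shRNA arrays and 10.62, 10.50 and 10.69 in control arrays. There the groups did not overlap, and Igf2r was higher by 0.25 (SE 0.056, limma adjusted p = 0.00220). Among 393 genes read by both a probe set above 13 and a dimmer one from 9 to 12, the dimmer had the larger absolute difference in 76.6%, by a median of 0.11. Igf2r has this order too, and the reason for it was not tested. With its probe sets averaged, Igf2r was called higher (0.15, limma adjusted p = 0.00791).

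Igfbp3, the binding protein that carries most IGF in blood and is also secreted by myoblasts, rose on both probe sets and had the largest difference among the members with 1 probe set a gene. On 1423062_at the signals were 12.41, 12.32 and 12.39 in shRNA arrays and 11.83, 11.68 and 11.88 in control arrays. The difference was 0.58 (SE 0.052, limma adjusted p = 1.11e-06). On 1458268_s_at they were 11.11, 11.05 and 11.10 in shRNA arrays and 10.48, 10.42 and 10.43 in control arrays. The groups lie far apart there as well, by 0.64 (SE 0.047, limma adjusted p = 1.56e-07), and 10.3% of all tested probe sets had a larger absolute difference. Leaving out any 1 array gave 0.52 to 0.62 on the first and 0.63 to 0.66 on the second. The genes whose profile over the 6 arrays lay closest to that of Igfbp3, each profile centred on its own mean, were Prkce, Jak2 and Zfp760. Their root mean square distances were 0.022, 0.030 and 0.031 on the log2 scale. Genes picked in this way have a similar difference between the groups by selection, and a link to Igfbp3 was not tested. Prkce, protein kinase C epsilon, stood at 10.83 ± 0.041 in shRNA arrays and 10.29 ± 0.095 in control arrays (SD). Jak2, a cytokine receptor kinase, stood at 11.10 ± 0.043 in shRNA arrays and 10.52 ± 0.070 in control arrays.

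Igfbp2, a binding protein of both ligands, had a single probe set, 1454159_a_at. It stood at 8.53, 8.66 and 8.55 in shRNA arrays and at 8.32, 8.20 and 7.82 in control arrays. The groups did not overlap, although the control arrays spread more (SD 0.26) than the shRNA arrays (SD 0.071). The difference was 0.47 (SE 0.12, limma adjusted p = 0.00454), or 1.39-fold, and ran from 0.32 to 0.57 with 1 array left out.

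Igfbp5, the main binding protein of differentiating muscle cells, had bright signals in both groups and did not pass on either probe set. On 1452114_s_at they were 13.58, 13.70 and 13.68 in shRNA arrays and 13.77, 13.70 and 13.69 in control arrays, a difference of -0.064 (95% interval -0.15 to 0.02, limma adjusted p = 0.193). On 1422313_a_at they were 13.18, 13.30 and 13.23 in shRNA arrays and 13.48, 13.30 and 13.28 in control arrays, a difference of -0.12 (SE 0.051, limma adjusted p = 0.0714). The groups overlap on both. These calls depend on the scaling. With the arrays centred on the medians of their tested probe sets, the differences were -0.13 (limma adjusted p = 0.00953) and -0.18 (0.00406). The second was also past the threshold after quantile normalization (-0.11, limma adjusted p = 0.0339), with scaling on spiked-in controls (-0.13, 0.0246) and without control array 3 (-0.15, 0.0489).

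Igfbp7, a matrix-associated protein that binds IGFs weakly, differed in direction between its probe sets. On 1423584_at it stood at 10.22, 10.18 and 10.20 in shRNA arrays and at 10.11, 10.08 and 10.01 in control arrays. Those groups do not overlap, but the difference of 0.13 (SE 0.054, limma adjusted p = 0.0535) missed the threshold, and passed it without control array 1 (0.15, adjusted p = 0.0351). On 1437804_at the signals were 8.19, 8.42 and 8.28 in shRNA arrays and 8.53, 8.64 and 8.52 in control arrays. Here the shRNA arrays were the lower ones, with a difference of -0.27 (SE 0.089, limma adjusted p = 0.0205). That call was lost without control array 2 (-0.23, adjusted p = 0.0818) or shRNA array 1 (-0.22, 0.0878) or 3 (-0.26, 0.0573). The remaining probe set, 1423585_at, was below the tested range at 6.23 ± 0.083 in shRNA arrays and 6.21 ± 0.22 in control arrays (SD). No single direction can be given for Igfbp7.

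Igfbp4, which mostly holds IGFs back from their receptor, had 6 probe sets, of which 4 were below the tested range. On 1421991_a_at the signals were 6.85, 6.87 and 6.95 in shRNA arrays and 7.02, 6.93 and 7.21 in control arrays (limma adjusted p = 0.252). On 1423757_x_at, which can also read related sequences, they were 8.11, 8.35 and 8.23 in shRNA arrays and 8.16, 8.11 and 8.06 in control arrays (limma adjusted p = 0.293). The groups overlap on both, and their differences had opposite signs, -0.16 (95% interval -0.41 to 0.09) and 0.12 (-0.08 to 0.32). Among all 28 probe sets, that of Igfbp4 closest above the limit of the tested range had a mean of 6.97 over the 6 arrays and that closest below it, also of Igfbp4, 6.48. Igfbp6, which prefers IGF2, had 1 probe set, at 5.36, 5.60 and 5.49 in shRNA arrays and 5.51, 5.26 and 5.06 in control arrays. It lay below the tested range, and a transcript above background was not shown for it in either group.

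**Figure D2:**
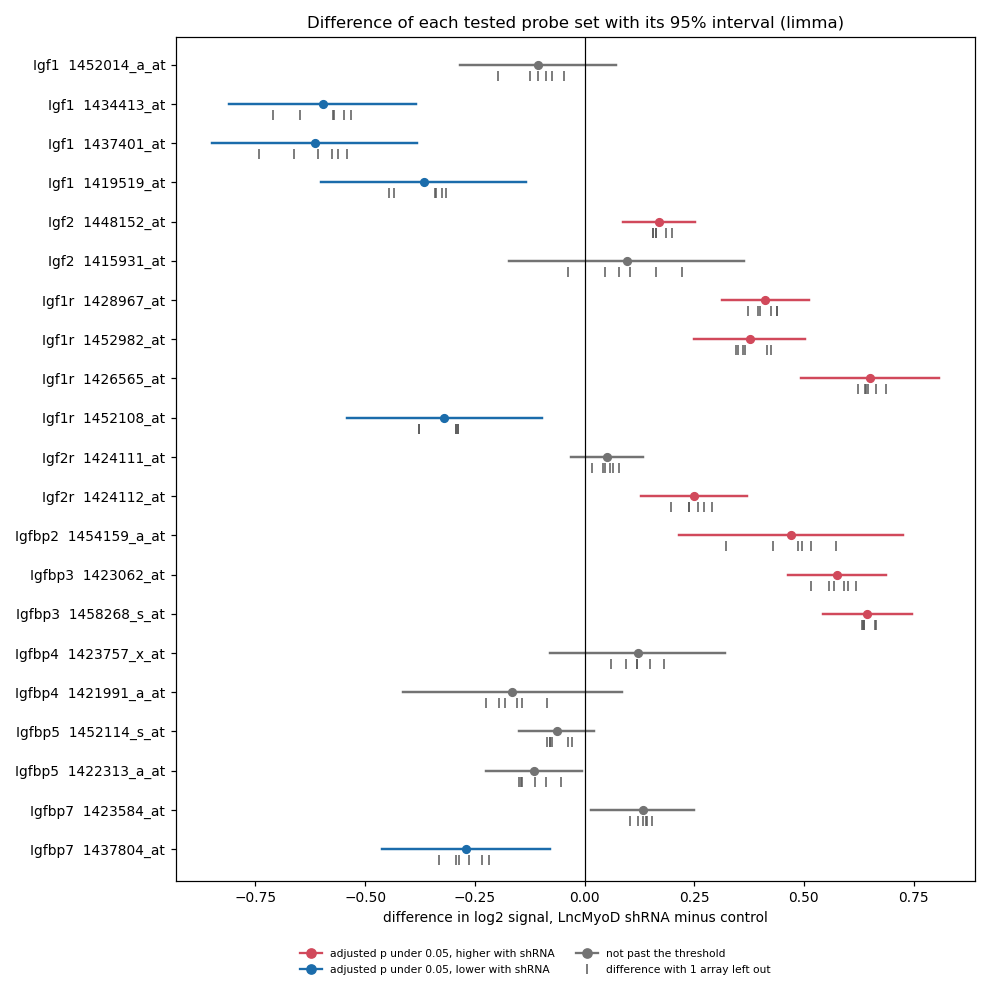
Difference in log2 signal, LncMyoD shRNA minus control, of the 21 tested probe sets (points) with limma's 95% intervals (lines) and the differences with 1 array left out (ticks). Both probe sets of Igfbp3 lie at 0.58 and 0.64, while those of Igf1r, Igfbp4 and Igfbp7 fall on both sides of 0.

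Genes that set IGFs free or hold them, other than the members, included some of the largest differences around the pathway. Of 14 tested genes for further binding proteins, proteases and their inhibitors, 4 rose, 5 fell and 5 missed the threshold, so that 64.3% were called, against 58.5% of all genes. Their median difference was -0.12, against 0.046 over all genes. Adam12, a metalloprotease of fusing myoblasts that cuts IGFBP3 and IGFBP5, stood at 7.92 ± 0.14 in shRNA arrays and 9.83 ± 0.086 in control arrays (SD). It fell by 1.91 on the log2 scale, or 3.75-fold (SE 0.087, limma adjusted p = 3.53e-09), and its other tested probe set fell too. Pappa2, a protease of IGFBP3 and IGFBP5, stood at 8.33 ± 0.20 in shRNA arrays and 9.30 ± 0.099 in control arrays, 1.96-fold lower (limma adjusted p = 4.15e-06). Stc2, stanniocalcin-2, an inhibitor of the pappalysin proteases, fell by 0.33 (SE 0.037). Htra1, a secreted serine protease that cuts IGFBP5, rose 1.53-fold, with 9.02 ± 0.017 in shRNA arrays and 8.40 ± 0.17 in control arrays (limma adjusted p = 8.19e-05). The protease genes thus moved both ways.

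Next to the receptor, 6 of 17 tested signalling genes rose, 7 fell and 4 missed the threshold, so that 76.5% were called, against 58.5% of all genes (35.7% higher and 22.8% lower). The median difference was 0.052, against 0.046 over all genes. Irs2, an adaptor that the activated receptor phosphorylates, had the largest difference of them, at 8.32 ± 0.090 in shRNA arrays and 6.87 ± 0.13 in control arrays (SD; limma adjusted p = 1.64e-07). The control signal is near the lower end of the tested range, so the difference of 1.45 on the log2 scale is approximate, and it was 1.59 with an offset of 16 removed. Gab1, a docking protein, rose by 0.47 (SE 0.048). Grb10, an adaptor that restrains the receptor, fell by 0.41 (SE 0.042), and Ptpn11, the phosphatase SHP-2, fell by 0.39 (SE 0.039). Insr, the related insulin receptor, stood at 11.43 ± 0.083 in shRNA arrays and 11.37 ± 0.054 in control arrays and did not pass (limma adjusted p = 0.415).

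Further down, 9 of 26 tested genes of PI3K, Akt and mTOR signalling rose, 5 fell and 12 missed the threshold. The share called, 53.8%, was near the 58.5% of all genes, and the median difference was 0.032, against 0.046 over all genes. Pik3r2, a regulatory subunit of PI3K, rose 1.54-fold, with 9.61 ± 0.038 in shRNA arrays and 8.99 ± 0.10 in control arrays (limma adjusted p = 1.03e-05). Rictor, a subunit of mTOR complex 2, rose by 0.45 (SE 0.049) and Foxo4, a transcription factor that Akt restrains, by 0.37 (SE 0.037). Rps6, the ribosomal protein phosphorylated downstream of mTOR, fell by 0.41 (SE 0.039) on its brightest probe set, but its other probe set passed in the opposite direction and their average did not pass (-0.052, limma adjusted p = 0.387). A further 3 listed genes are not analysed here.

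For the sorting route that IGF2R serves, 5 of 13 tested genes were higher, 2 lower and 6 not past the threshold. Here too 53.8% were called, near the 58.5% of all genes, and the median difference was 0.070, against 0.046 over all genes. Gnptab, a subunit of the enzyme that makes the mannose 6-phosphate tag, was at 8.80 ± 0.10 in shRNA arrays and 9.92 ± 0.26 in control arrays, 2.16-fold lower (limma adjusted p = 2.56e-06). Gga2, an adaptor that loads tagged cargo at the Golgi, was at 12.48 ± 0.070 in shRNA arrays and 13.15 ± 0.0075 in control arrays, 1.59-fold lower (limma adjusted p = 3.01e-08). M6pr, the other mannose 6-phosphate receptor, rose by 0.35 (SE 0.040), and Ap1m1, a clathrin adaptor subunit, rose by 0.41 (SE 0.054).

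Igf2 and Igf2r are imprinted, and of 7 other tested imprinted genes 1 rose, 3 fell and 3 missed the threshold. That is 57.1% called, against 58.5% of all genes, with a median difference of -0.26, against 0.046 over all genes. Airn, the non-coding RNA that overlaps Igf2r in antisense and silences it on the paternal chromosome, was at 11.06 ± 0.094 in shRNA arrays and 11.51 ± 0.27 in control arrays. It fell by 0.44 (SE 0.10, limma adjusted p = 0.00262), as did its other 4 tested probe sets. Grb10, described above, is also imprinted. Cdkn1c, a cell cycle inhibitor of the same chromosome region as Igf2, fell by 0.33 (SE 0.10, limma adjusted p = 0.0173). Its call was lost without control array 2 (-0.32, adjusted p = 0.0529) or shRNA array 2 (-0.29, 0.0639). Plagl1, an imprinted zinc finger factor, rose by 0.27 (SE 0.060). Of the genes named from these 5 lists, Stc2, Gab1, Rictor, Foxo4 and Plagl1 each had 1 other tested probe set that did not pass. Over the 5 lists together, with Grb10 counted once, 25 of 76 tested genes rose (32.9%) and 21 fell (27.6%), against 35.7% and 22.8% of all genes. With the arrays centred on the medians of their tested probe sets, 21 rose (27.6%) and 27 fell (35.5%), against 29.2% and 29.5% of all genes.

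**Figure D3:**
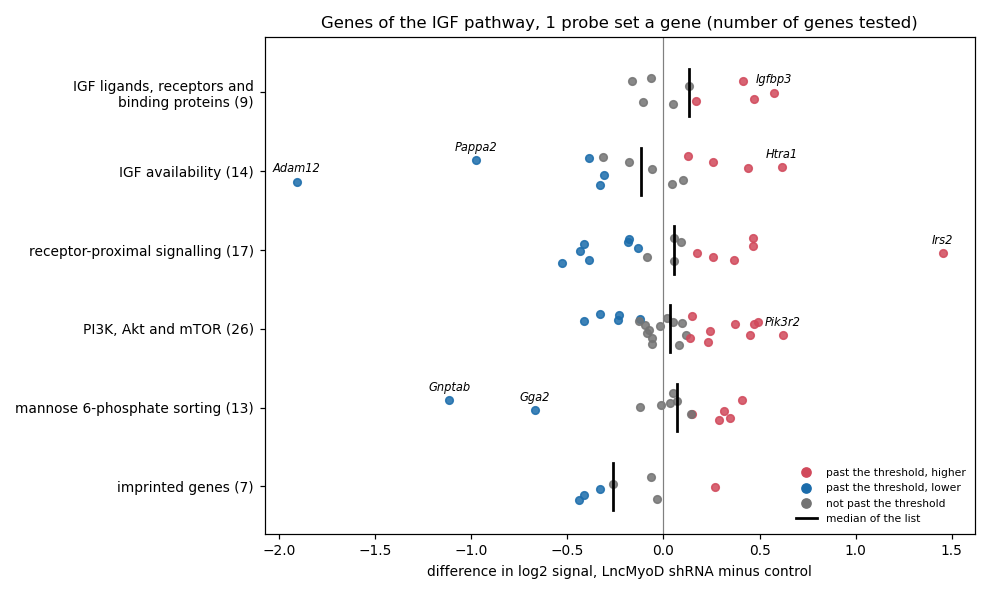
Difference in log2 signal, LncMyoD shRNA minus control, with 1 probe set a gene, for the members and 5 further lists (number of genes tested in brackets); each point is 1 gene, its colour gives limma's call and the black bar is the list's median. Medians lie between -0.26 and 0.13, with Adam12, Pappa2, Gnptab and Irs2 far from 0.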

How the data were processed

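Each of the 6 arrays (Affymetrix, mouse) holds 1 normalized log2 signal per probe set as the authors deposited it. The scale was read from the values, 4.48 to 14.6, with a median of 7.23 on control array 1. PLIER and MAS5 are named in the submitters' processing notes without a role; versions and background correction were not given in the sources used here. An array has no read depth, and 3 arrays a group limit the precision. The labels call the replicates biological but name no separate animals or cultures, and the p-values measure only how these arrays spread, which may be technical.

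Names of probe sets are those of the platform's annotation, and all 10 members matched RefSeq's gene table by identifier. After 64 control probe sets were set aside, the dimmest 40% by mean signal (18014) were left out, which kept 27023 with a mean of 6.50 or more. Differences were fitted with limma 3.58.1 in R 4.3.3 (lmFit, eBayes with trend), as LncMyoD shRNA minus control, and adjusted over all tested probe sets by the Benjamini-Hochberg method. A gene is represented by its brightest probe set, using those ending in _x_at only where it has no other. The calculation was tested on simulated data, in which far fewer probe sets were changed than were called here. That run checks the calculation and does not measure how many calls here are false. Named are all members, up to 4 called genes of each further list, by smallest p, those of 3 lists that differed at least 1.5-fold, and the 3 genes closest in profile to the member with the largest called difference, 32 genes in all. Insr and the cell type markers were named after their values were seen. Members and lists were chosen with earlier results of these data known. Alternatives were other filters, variance models, scalings, the removal of an offset of 16, other ways to represent a gene, a replicate block and leaving out each array. Columns left without a sample numbered 0. LncMyoD matched none of the named probe sets, and its knockdown is not analysed here.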

Additional observations from a re-analysis of the deposited data

How the results depend on the processing

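The number of member probe sets called higher was 8 under every change of filter, variance model, scaling and offset, and the leave-one-out range was 8 to 9. The 5 called lower became 7 with centring on the medians of tested probe sets, and 6 with quantile or spike scaling. They numbered 3 to 5 with 1 array left out, the lowest without control array 2 or shRNA array 3. With 1 probe set a gene, 0 members were lower, against 1 with centring (Igfbp5). Averaging probe sets also gave 1, as did leaving out those ending in _x_at, _s_at or _a_at (Igf1 in both). The 4 members called higher became 3 without probe sets of those endings and 5 without control array 1. Values that changed sign were those of the dimmer Igf2 probe set (-0.037 without control array 2, in a range of -0.037 to 0.22), the brighter Igf2r probe set (-0.013 with centring) and Igfbp7 with its probe sets averaged (-0.069). The cause was not tested. With the replicate number as a block, 8 member probe sets were higher and 5 lower, and 7726 and 5920 of all probe sets. Same-numbered arrays deviated from their group means with correlations of -0.13, -0.061 and 0.031, so the numbers were not taken as pairs. Detection calls were not used, so signals near 6.50 cannot be told from background.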
